A study of Homo sapiens with 10 samples.

Results

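The S100 genes described here are 9 protein-coding genes of the small EF-hand calcium-binding proteins: S100A8, S100A9, S100A12, S100A4, S100A6, S100A10, S100A11, S100A13 and S100P. They were picked by symbol from the 60603 genes of the expression tables. All were found in both tables. For 8 of the 9 every comparison carried an adjusted p-value, and for S100A12, the least abundant, only that of the MC2580 experiment did.

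RNA was sequenced from NB4 cells, a human acute promyelocytic leukemia line. In the GSE1 knockdown, cells carried pLKO.1 puro, a lentiviral vector, either empty (EV) or with the short hairpin shA1 or shB2 against GSE1, a partner of the histone demethylase LSD1, and were collected at 48 h. In the LSD1 inhibition, cells received DMSO or 2 µM of the LSD1 inhibitor MC2580 and were collected at 24 h. Each of the 5 groups held 2 replicate libraries, 10 in all, and every library came from the same cell line. The hairpins and the inhibitor thus differed in time point, vector and control, and their values are set side by side below without a test between them.

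S100 proteins are short, mostly dimeric proteins that change shape on binding calcium and then dock onto target proteins. S100A8 and S100A9 pair into calprotectin, an abundant cytosolic complex of mature neutrophils and monocytes that is released as a danger signal and withholds metals from microbes, and S100A12 belongs to the same myeloid group. The others act mainly inside cells: S100A10 and S100A11 bind annexins, S100A4 binds non-muscle myosin, S100A6 binds calcyclin-binding protein, S100A13 takes part in the release of proteins that lack a signal peptide, and S100P binds ezrin.

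The values are the base mean of a gene, which is its read count divided by a library size factor and averaged over all libraries of an experiment, and the log2 fold change of treated over control with its standard error (SE). A gene was called when its Benjamini-Hochberg adjusted p-value in the DESeq2 Wald test was under 0.01 and its log2 fold change was larger than 1 in size, and "rose" and "fell" are used of called genes only. The tables used here give no value per library, so the depth of each library is unknown, and group means were solved from the base mean and the fold changes. The spread (SD) attached to a group mean is the one that the SE implies for a single library. GSE1 transcript was lower by both hairpins, at log2 fold changes of -0.77 (SE 0.13) under shA1 and -0.79 (SE 0.14) under shB2, and stood at 0.07 (SE 0.20) under MC2580. The hairpin values had adjusted p of 2.47e-07 and 7.66e-08 and were under the fold threshold. KDM1A, which encodes LSD1, lay between -0.05 and 0.03 in the 3 comparisons. Of 6 promyelocyte markers, 5 were detected, led by the peroxidase gene MPO at a base mean of 506765 in the knockdown and 824818 in the MC2580 experiment, while ELANE, the neutrophil elastase gene, was at 1.10 and 3.87. Among genes of other lineages, the base means in the same order were 0.217 and 0 for the B cell gene MS4A1, 1.55 and 2.98 for the T cell gene CD3E, and 432 and 403 for the epithelial gene EPCAM.

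Of the 9 genes, 8 lie on chromosome 1 and 1, S100P, on chromosome 4 (6693878-6697170, plus strand; GRCh38, GENCODE 44). The calprotectin genes S100A8 and S100A9 and the myeloid gene S100A12 stand close together. S100A8 is at 153390032-153391073 on the minus strand, and S100A12 starts 15.5 kb away at 153373711-153375621 on the same strand. S100A9 starts 33.2 kb from S100A8, at 153357854-153361023 on the plus strand. S100A6 (153534599-153536244), S100A4 (153543613-153550136) and S100A13 (153618787-153631360) follow on the minus strand, and S100A10 (151982915-151993859) and S100A11 (152032506-152047907), both on the minus strand, start 1397 and 1354 kb from S100A8. S100A13 shares 235 exonic bases with S100A1 on the opposite strand and 536 with a long noncoding RNA on its own strand. Reads in those stretches cannot be told apart by strand, since the library kit does not mark it and the long noncoding RNA shares the strand of S100A13.

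The bases in front of S100A8 and S100A9, the members with the largest called changes, are shown beside those of S100A6, the other member that was called. Each is the 250 bases before the gene's start, 5′ to 3′ on the gene's strand, from RefSeq on GRCh38.p14, with chr1:153391074-153391323 (minus) for S100A8, chr1:153357604-153357853 (plus) for S100A9 and chr1:153535992-153536241 (minus) for S100A6. Capitals mark TATAAA and AGGAAG or its reverse complement CTTCCT, the letters of a TATA box and of an ETS factor motif.
S100A8: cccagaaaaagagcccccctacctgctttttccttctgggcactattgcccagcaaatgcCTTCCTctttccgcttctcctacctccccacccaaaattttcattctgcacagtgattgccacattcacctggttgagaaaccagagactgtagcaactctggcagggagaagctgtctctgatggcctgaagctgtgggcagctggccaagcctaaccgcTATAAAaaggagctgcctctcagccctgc
S100A9: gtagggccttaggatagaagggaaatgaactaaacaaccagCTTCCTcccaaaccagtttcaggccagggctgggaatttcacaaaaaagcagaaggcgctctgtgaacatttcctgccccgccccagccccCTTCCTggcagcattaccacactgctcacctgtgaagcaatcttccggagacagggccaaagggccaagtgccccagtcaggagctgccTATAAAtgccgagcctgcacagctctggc
S100A6: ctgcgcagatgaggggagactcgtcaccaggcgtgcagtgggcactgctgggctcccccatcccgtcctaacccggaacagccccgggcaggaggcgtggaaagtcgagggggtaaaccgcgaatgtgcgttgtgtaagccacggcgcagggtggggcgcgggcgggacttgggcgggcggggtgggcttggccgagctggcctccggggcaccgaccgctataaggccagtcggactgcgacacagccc

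All 9 genes matched the RefSeq promoter table, and motifs were searched on both strands over its window of 300 bases, 250 before the start and 50 after it. TATAAA was held by 6 of the 9 windows (S100A8, S100A9, S100A12, S100A4, S100A13 and S100P) and by 11.5% of the 35116 promoters of the same length. In S100A8 and S100A9 it began 29 bases before the start. The windows of S100A6, S100A10 and S100A11 lacked it and held 31, 32 and 22 CpG dinucleotides, against 2 in S100A8, 5 in S100A9 and 1 in S100A12 and a median of 14 over all promoters. AGGAAG was found once in S100A8, S100A12 and S100A4, at 2 places in S100A9, S100A10 and S100P, and in 33.6% of all promoters. TTGCNNAA, a C/EBP motif, was present in S100A12 and S100A11 and in 10.5% of promoters. AATCACNGC, a motif of the LSD1 partner GFI1, was in 0 of the 9 windows and in 1.03% of all promoters. These matches describe letters only.

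In the EV and DMSO control cells, the intracellular S100 genes other than S100A13 were abundant and the calprotectin genes were scarce. Levels of different genes are compared as normalised counts per kb of exon, which removes the effect of gene length. In EV cells, S100A11 led at 7812 per kb, followed by S100A4 at 4309, S100A10 at 2631, S100P at 1815 and S100A6 at 998. S100A9 at 111 and S100A13 at 105 came next and differed by less than their summed SDs, and S100A8 at 12.2 and S100A12 at 0.448 were lowest. The other neighbours in this order were further apart than their summed SDs. In DMSO cells, S100A11 was again highest at 6265 per kb, then S100A4 at 3101, S100A10 at 2244 and S100P at 1708, where the last pair differed by less than their summed SDs. S100A6 at 1116, S100A13 at 163, S100A9 at 59.2, S100A8 at 6.71 and S100A12 at 0.353 completed the order, each further from its neighbours than their summed SDs. Dividing by the longest coding transcript in place of all exons put S100A13 at 328 above S100A9 at 111 in EV cells and left the rest of both orders as they were.

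**Figure D1:**
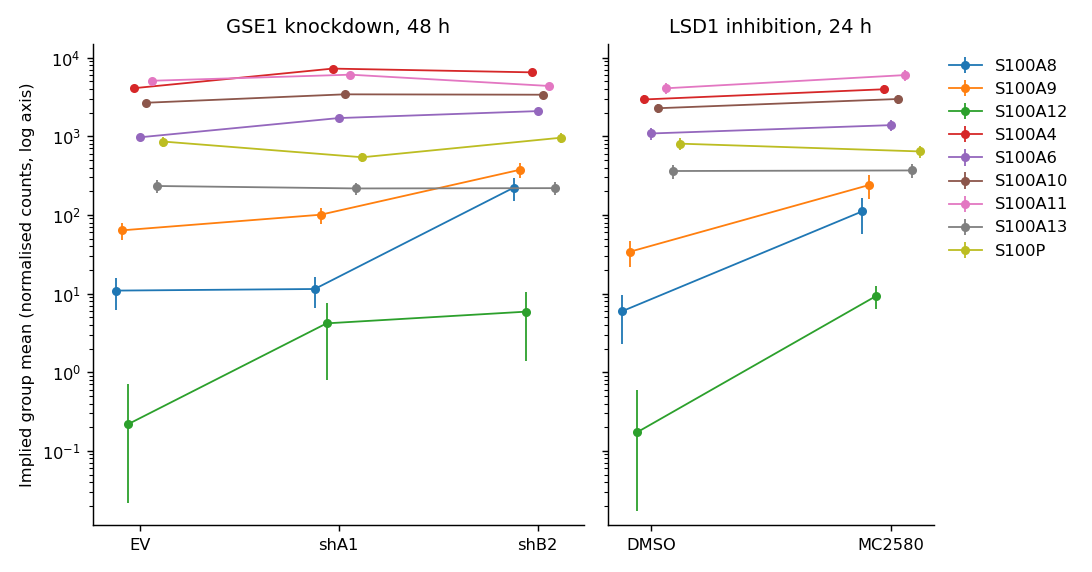
Implied group means of the 9 S100 genes in normalised counts (log axis, not divided by gene length) in the GSE1 knockdown at 48 h (left) and the LSD1 inhibition at 24 h (right); bars are the SD for a single library implied by the standard error, shortened where they would pass below 0. S100A8 stood at 10.9, 11.4 and 222 under EV, shA1 and shB2 and at 5.98 and 111 under DMSO and MC2580 and S100A11 between 4066 and 6060.1 in all groups.

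The calprotectin genes rose under shB2 and under MC2580 and were not called under shA1. S100A8 had an implied mean of 10.9 ± 4.73 normalised counts in EV cells, 11.4 ± 4.90 in shA1 cells and 222 ± 70.5 in shB2 cells. The shB2 mean lay far above the others, and the EV and shA1 means were within each other's SD. Its log2 fold change was 4.35 under shB2 (SE 0.55, adjusted p = 1.23e-13), a 20.3-fold difference with a 95% interval of 9.58 to 43.2, and ranked 91 of 17913 genes tested from the highest. Under shA1 it was 0.07 (SE 0.62, adjusted p = 0.966), with an interval of -1.14 to 1.28. In the MC2580 experiment S100A8 went from 5.98 ± 3.73 to 111 ± 53.0 normalised counts, a log2 fold change of 4.21 (SE 0.80, adjusted p = 5.97e-05) that ranked 60 of 18554. This is an 18.5-fold difference with an interval of 6.22 to 55.0. In bulk RNA, fewer cells of a type and less RNA per cell cannot be told apart, so a rise in a share of the cells and a rise in all of them would look alike here.

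S100A9, the partner of S100A8 in calprotectin, rose in the same comparisons and had smaller fold changes. Its implied mean was 63.6 ± 15.5 in EV, 100.5 ± 23.3 in shA1 and 374 ± 80.5 in shB2 cells. The shB2 mean was apart from the other 2, and the SDs of EV and shA1 overlapped. The log2 fold change was 2.56 under shB2 (SE 0.33, adjusted p = 4.22e-13), or 5.88-fold (3.74 to 9.24), and ranked 412 of 17913. Under shA1 it was 0.66 (SE 0.34, adjusted p = 0.149), with an interval from -0.01 to 1.33. With MC2580, S100A9 went from 33.9 ± 12.3 to 240.0 ± 78.6, a log2 fold change of 2.82 (SE 0.50, adjusted p = 7.35e-06), or 7.08-fold (3.59 to 13.9), which ranked 139 of 18554. When the test was set against a log2 fold change of 1 in place of 0, the adjusted p under MC2580 was 0.0391 for S100A8 and 0.111 for S100A9, both above 0.01, while under shB2 they were 1.37e-07 and 0.000147.

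S100A12, the third gene of the myeloid group, was listed at a very low level. Its implied means were 0.217 in EV, 4.18 in shA1 and 5.88 in shB2 cells, and 0.171 and 9.34 in DMSO and MC2580 cells. The fitted log2 fold changes were 4.27 (SE 2.43), 4.76 (SE 2.42) and 5.77 (SE 2.38). The hairpin comparisons carried no adjusted p, and that of MC2580 was 0.508. With control means under 1 normalised count, these are fitted values that depend on the model and set no lower bound on a change.

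**Figure D2:**
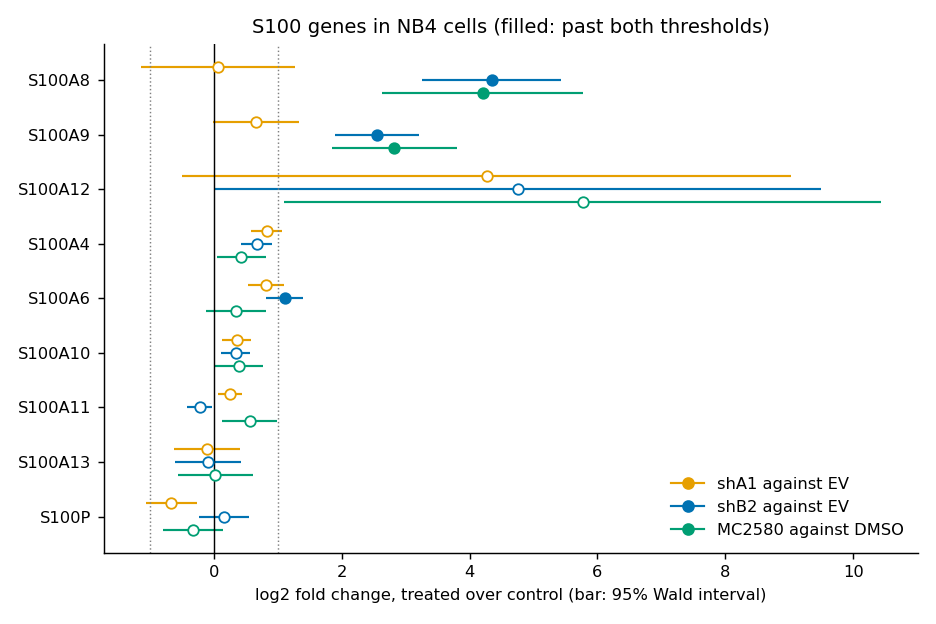
Log2 fold change of treated over control for each S100 gene and comparison, with 95% Wald intervals; filled points are past both thresholds, dotted lines mark a log2 fold change of 1 in size. S100A8 is at 4.35 and 4.21 under shB2 and MC2580 and at 0.07 under shA1, and the wide bars of S100A12 reflect standard errors of 2.38 to 2.43.

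Both hairpins target GSE1, and the difference between them was tested directly. S100A8 was higher under shB2 than under shA1 by 4.28 on the log2 scale (SE at most 0.83, 95% interval 2.65 to 5.90, adjusted p = 1.07e-05), and S100A9 by 1.90 (SE at most 0.48, interval 0.96 to 2.83, adjusted p = 0.00152). The SE is an upper bound because both hairpins share the EV libraries. Thus 2 of 8 S100 genes tested were called higher under shB2 than under shA1, where 0.828% of 16673 genes were, and 0 of 8 were called lower, where 2.2% were. S100A11 was lower under shB2 by a difference of -0.48 (SE at most 0.14, adjusted p = 0.00760), under the fold threshold, and S100P differed by 0.83 (SE at most 0.28, adjusted p = 0.0379). S100A4, S100A6, S100A10 and S100A13 differed by -0.16, 0.29, -0.02 and 0.01, with adjusted p between 0.507 and 0.998. Their 95% intervals were -0.50 to 0.18, -0.11 to 0.69, -0.33 to 0.30 and -0.72 to 0.75, in that order.

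The ratio of the calprotectin transcripts was not the same in every group. Per kb of exon, S100A9 exceeded S100A8 by 9.07 times in EV, 13.7 times in shA1 and 2.62 times in shB2 cells, and by 8.82 times in DMSO and 3.38 times in MC2580 cells. With the longest coding transcript as the length, the ratios were 5.04, 7.60 and 1.46 in EV, shA1 and shB2 cells and 4.90 and 1.88 in DMSO and MC2580 cells. These ratios rest on low S100A8 means in the controls, 10.9 normalised counts in EV and 5.98 in DMSO cells, and were not tested. The shares and sums that follow are of normalised counts not divided by gene length. S100A8 and S100A9 together made up 0.534% of the summed mean of the 9 genes in EV, 0.580% in shA1 and 3.29% in shB2 cells. In DMSO and MC2580 cells they made up 0.345% and 2.24%. The summed mean of the other 7 genes was 13865, 19170.2 and 17480 in the knockdown groups and 11520 and 15317 in the MC2580 experiment.

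Counted over the 9 genes, 3 of 8 tested rose under shB2 (S100A8, S100A9 and S100A6), against 5.58% of all 17913 genes tested, and 0 fell, against 2.91%. By the adjusted p-value alone, 4 of 8 were higher (S100A4 in addition; 14.2% of all genes) and 0 lower (12.1%). With MC2580, 2 of 9 rose (S100A8 and S100A9), against 0.587% of 18554 genes, and 0 fell, against 0.0162%, and by the adjusted p-value alone the counts were 2 and 0, against 0.733% and 0.0269%. Under shA1, 0 of 8 rose, against 4.32% of 16673 genes, and 0 fell, against 0.786%. By the adjusted p-value alone, 3 of 8 were higher under shA1 (S100A4, S100A6 and S100A10; 11.3% of all genes) and 1 was lower (S100P; 7.99%). An unadjusted Wald p-value under 0.05 was reached by 5 of 8 under shA1, where 35.3% of all genes tested reached it, by 6 of 8 under shB2 (40.4%) and by 6 of 9 under MC2580 (5.77%), the last count including the fitted value of S100A12. The median log2 fold change of the 9 was 0.36, 0.67 and 0.43 in these comparisons, where that of all genes tested rounded to 0.00 in size in each. The medians of the 9 include the fitted values of S100A12, which was not among the genes tested under either hairpin. Its value was the highest of the 9 in each comparison and raises these medians.

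**Figure D3:**
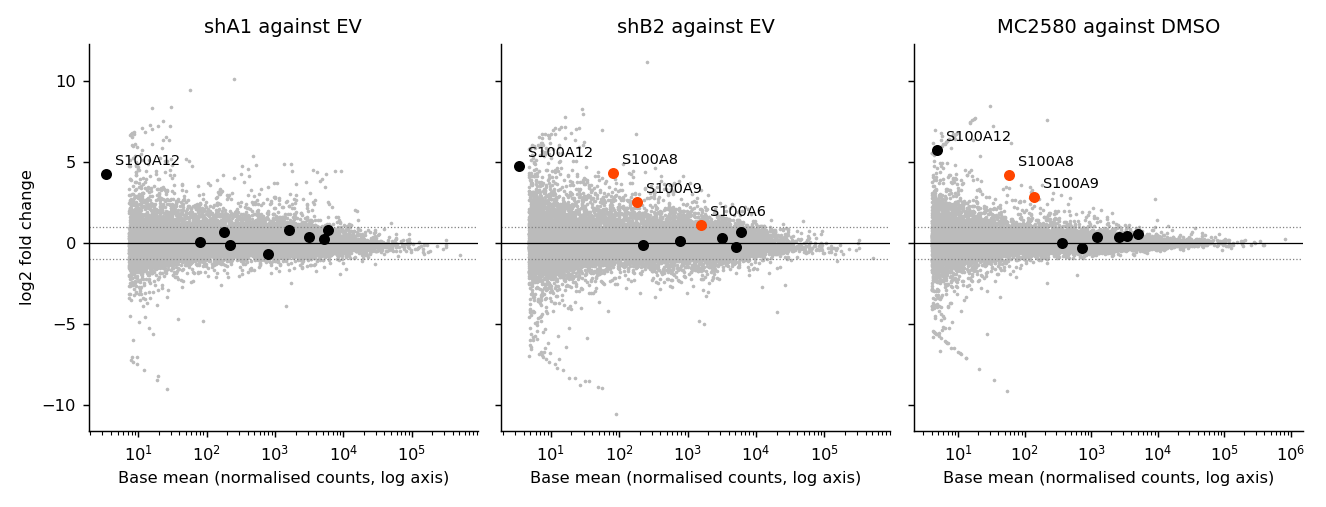
Log2 fold change against base mean (log axis) for every gene with an adjusted p-value (grey) and the 9 S100 genes (black, or orange where called higher) in the 3 comparisons; S100A12 has no adjusted p under either hairpin and is drawn for its values only. Under MC2580, S100A8 and S100A9 rank 60 and 139 of 18554 genes by log2 fold change, and under shA1 no S100 gene is orange.

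Under shB2 and MC2580, the log2 fold changes of the intracellular members were smaller in size than those of S100A8 and S100A9, and under shA1 those of S100A4 and S100A6 were larger. S100A6, which binds calcyclin-binding protein, had implied means of 969 ± 98.0 in EV, 1701 ± 168 in shA1 and 2086 ± 205 in shB2 cells, and both hairpin means were above the EV mean by more than the SDs. It rose under shB2 at a log2 fold change of 1.11 (SE 0.14, adjusted p = 4.24e-13), with an interval of 0.82 to 1.39 that includes the threshold of 1. Set against a log2 fold change of 1, its adjusted p was 1. Under shA1 its log2 fold change was 0.81 (SE 0.14, adjusted p = 3.70e-07), short of the fold threshold. MC2580 gave 0.35 (SE 0.24, adjusted p = 1.00, interval -0.12 to 0.82).

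S100A4, which binds non-muscle myosin and lies beside S100A6, stood at 4076 ± 346 in EV, 7239 ± 609 in shA1 and 6490 ± 547 in shB2 cells. Its log2 fold changes of 0.83 (SE 0.12, adjusted p = 3.85e-10) and 0.67 (SE 0.12, adjusted p = 4.09e-07) passed the p threshold and not the fold threshold. By MC2580 it went from 2933 ± 395 to 3952 ± 531, at 0.43 (SE 0.19, adjusted p = 0.672). The hairpin means of S100A4 were thus above the EV mean by more than the SDs, with a larger value under shA1 than shB2 that did not hold up against the error of the difference.

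S100A10, the light chain of the annexin A2 complex, had nearly the same value in each comparison. The implied means were 2662, 3409 and 3371 in EV, shA1 and shB2 cells and 2270.4 and 2974 in DMSO and MC2580 cells. The log2 fold changes were 0.36 (SE 0.11, adjusted p = 0.00914), 0.34 (SE 0.11, adjusted p = 0.0107) and 0.39 (SE 0.19, adjusted p = 0.831). Of these, only the value under shA1 passed the p threshold, by a narrow margin.

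S100A11, a partner of annexin A1 and the most abundant member per kb in the controls, had implied means of 5070.1, 6060.1 and 4351 in EV, shA1 and shB2 cells. Its log2 fold change was 0.26 under shA1 (SE 0.10, adjusted p = 0.0317) and -0.22 under shB2 (SE 0.10, adjusted p = 0.0653), neither of them past the p threshold. With MC2580 it was 0.56 (SE 0.22, adjusted p = 0.448, interval 0.12 to 1.00), from 4066 to 5990 normalised counts.

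S100P, the member on chromosome 4, had implied means of 855 ± 119 in EV, 540.3 ± 76.3 in shA1 and 958 ± 133 in shB2 cells. The shA1 mean was below both others by more than the SDs. Its log2 fold change was -0.66 under shA1 (SE 0.20, adjusted p = 0.00591), under the fold threshold, 0.16 under shB2 (SE 0.20, adjusted p = 0.603) and -0.33 under MC2580 (SE 0.24, adjusted p = 1.00). S100A13 gave values of -0.10, -0.09 and 0.02 (SE 0.27, 0.27 and 0.30), with implied means of 233, 217 and 219 in the knockdown and 361 and 367 in the MC2580 experiment. Its 95% intervals reached from -0.62 to 0.61, so changes within that range were not excluded. The intervals are not a limit of detection, since a log2 fold change of up to 1 in size could not be called here at any p-value.

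The precision was lower for S100A8 and S100A9 than for the more abundant members. The dispersion used here is 1 value per gene and experiment, solved from the SE of the authors' fit. It is not a spread measured between the 2 libraries of a group. The coefficient of variation between replicate libraries that the dispersion implies, counting noise left out, was 31.1% for S100A8 and 20.9% for S100A9 in the knockdown, and between 6.57% (S100A11) and 17.2% (S100A13) for the other members apart from S100A12. In the MC2580 experiment it was 47.0% for S100A8, 32.1% for S100A9 and 13.3% to 19.9% for the same others. The median over genes of base mean 50 or more was 10.4% in the knockdown and 15.8% in the MC2580 experiment.

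Patterns were compared over 10916 protein-coding genes whose base mean was 50 or more in both experiments. The gene whose 3 log2 fold changes lay closest to those of S100A8 was PIK3R6, a regulatory subunit of PI3K gamma, at a Euclidean distance of 2.10 and values of 2.01, 4.24 and 3.41 under shA1, shB2 and MC2580. S100A9 was the next closest, at 2.34. For S100A9 the closest genes were MCUB, a subunit of the mitochondrial calcium uniporter, at 0.858 (1.21, 3.05 and 2.39) and the nitric oxide synthase gene NOS3 at 0.947 (1.36, 2.85 and 2.25), and S100A8 was at rank 153. S100A6 was closest to LRP6, a Wnt co-receptor, at 0.0852 and to the calcium pump gene ATP2B1 at 0.0957. In all, 71 genes were called higher under both shB2 and MC2580, 26 of them were not called under shA1, and 5 of those 26 were also called higher under shB2 in the test of the difference between hairpins. These were S100A8, S100A9, GLIPR1 (0.86, 2.01 and 1.26), RILPL1 (0.63, 1.95 and 1.40) and the fatty acid transporter gene SLC27A1 (0.68, 1.80 and 1.06), the last 3 named after their values were seen.

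Of 11 other S100 genes, 6 were tested under shB2, and 1 was called: S100B, best known from glial cells, rose at a log2 fold change of 1.14 (SE 0.16, adjusted p = 3.86e-12). Under shA1, 0 of 3 tested were called, with S100B at 0.26 (SE 0.16), and under MC2580 0 of 2, with S100B at 0.09 (SE 0.25). Of 7 receptors of S100 proteins tested under shB2, 1 rose, NPTN at 1.03 (SE 0.12). The share of all genes that rose there was 5.58%, against this 1 of 7 and the 1 of 6 other S100 genes. TLR4, the calprotectin receptor, was at 0.74, 0.66 and -0.14 under shA1, shB2 and MC2580 without passing both thresholds. AGER and CD36, which encode further receptors, did not pass the p threshold in any comparison. Of 7 receptors under shA1 and 8 under MC2580, 0 were called. Of all genes tested, 4.32% rose and 0.786% fell under shA1, and 0.587% rose and 0.0162% fell under MC2580.

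Of 11 intracellular partners of S100 proteins tested under shB2, 4 rose and 0 fell, against the 5.58% and 2.91% of all genes given above. They were AHNAK, a scaffold bound by S100A10 with annexin A2, at 1.35 (SE 0.12), ANXA1, the partner of S100A11, at 1.37 (SE 0.14), ANXA5 at 1.33 (SE 0.12) and ANXA6 at 1.02 (SE 0.09). The median of the 11 was a log2 fold change of 0.76. Under shA1, 1 of 10 rose, AHNAK at 1.25 (SE 0.12), where 4.32% of all genes rose, and ANXA1 was at -0.51 (SE 0.14). Under MC2580, 1 of 10 rose, where 0.587% of all genes did. It was ANXA2, the partner of S100A10, at 1.40 (SE 0.20, adjusted p = 1.03e-09), while S100A10 itself was at 0.39. CACYBP, the partner of S100A6, was at -0.30, -0.02 and -0.19 and was not called.

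Of 7 transcription factors linked to the calprotectin genes, 1 rose under shB2, HIF1A at 1.25 (SE 0.12), and 2 fell, CEBPD at -2.20 (SE 0.15) and CEBPE at -1.18 (SE 0.14), where 5.58% of all genes rose and 2.91% fell. Under shA1 and under MC2580, 0 of 7 were called, and CEBPE was at -0.89 (SE 0.14) and 0.40 (SE 0.19). Of all genes, 4.32% rose and 0.786% fell under shA1, and 0.587% rose and 0.0162% fell under MC2580. Judged by the adjusted p-value alone, 1 factor was higher and 3 were lower under shA1, against 11.3% and 7.99% of all genes. Under shB2, 3 were higher and 3 lower, against 14.2% and 12.1%, and under MC2580 0 passed. SPI1, which encodes PU.1, was at 0.07, 0.04 and 0.25. Of 13 other EF-hand calcium-binding genes, among them the calmodulin genes, 0 were called in any comparison, with medians of -0.17, 0.21 and -0.09. By the adjusted p-value alone, 4 were lower under shA1 (7.99% of all genes), and 4 were higher and 3 lower under shB2 (14.2% and 12.1%). Under MC2580, 0 passed, where 0.733% of all genes were higher and 0.0269% lower.

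Of 5 promyelocyte markers tested, 2 fell under shB2, where 2.91% of all genes fell and the calprotectin genes rose: AZU1 (-1.08, SE 0.20) and PRTN3 (-1.57, SE 0.36). The other markers were at -0.92 for MPO (adjusted p = 9.27e-27), -0.33 for CTSG (adjusted p = 0.420) and 0.43 for CD33 (adjusted p = 0.000751). By the p threshold alone, MPO was lower and CD33 was higher. Under shA1, where 0.786% of all genes fell and the calprotectin genes were not called, CTSG (-1.74, SE 0.28) and PRTN3 (-1.48, SE 0.36) fell. AZU1 at -0.93 (adjusted p = 5.20e-05) and MPO at -0.73 (adjusted p = 1.14e-16) were lower by the p threshold alone. CD33 was at 0.26 (adjusted p = 0.0751). Under MC2580, 0 of 5 were called, with a median of 0.27, while S100A8 and S100A9 rose. Of all genes, 0.587% rose and 0.0162% fell there. The summed implied mean of the 6 markers, most of it MPO, was 726420 in EV, 437194 in shA1 and 387005 in shB2 cells and 763996 and 916317 in DMSO and MC2580 cells. Without MPO it was 13699, 6783, 9842, 15999 and 14679 in the same order. The part of these shifts in the values of the S100 genes was not tested.

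Of 81 protein-coding genes that lie at least in part within 500 kb of a member and are not members, 40 were tested under shB2. Of these, 3 rose, where 5.58% of all genes did: MAN2B2 at 1.19, near S100P, and TUFT1 at 1.15 and GATAD2B at 1.21 on chromosome 1. Under shA1 and under MC2580, 0 of 36 tested were called. Of all genes, 4.32% rose and 0.786% fell under shA1, and 0.587% rose and 0.0162% fell under MC2580. The median over the tested neighbours was 0.05, 0.17 and -0.01 under shA1, shB2 and MC2580. Within the cluster itself, S100A3 and S100A2 were at 1.48 (SE 1.92) and 2.05 (SE 1.76) under shB2 with base means of 4.75 and 6.96, and S100A1, which overlaps S100A13, was at -0.56, 0.70 and -0.46 (SE 0.41, 0.42 and 0.38).

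**Figure D4:**
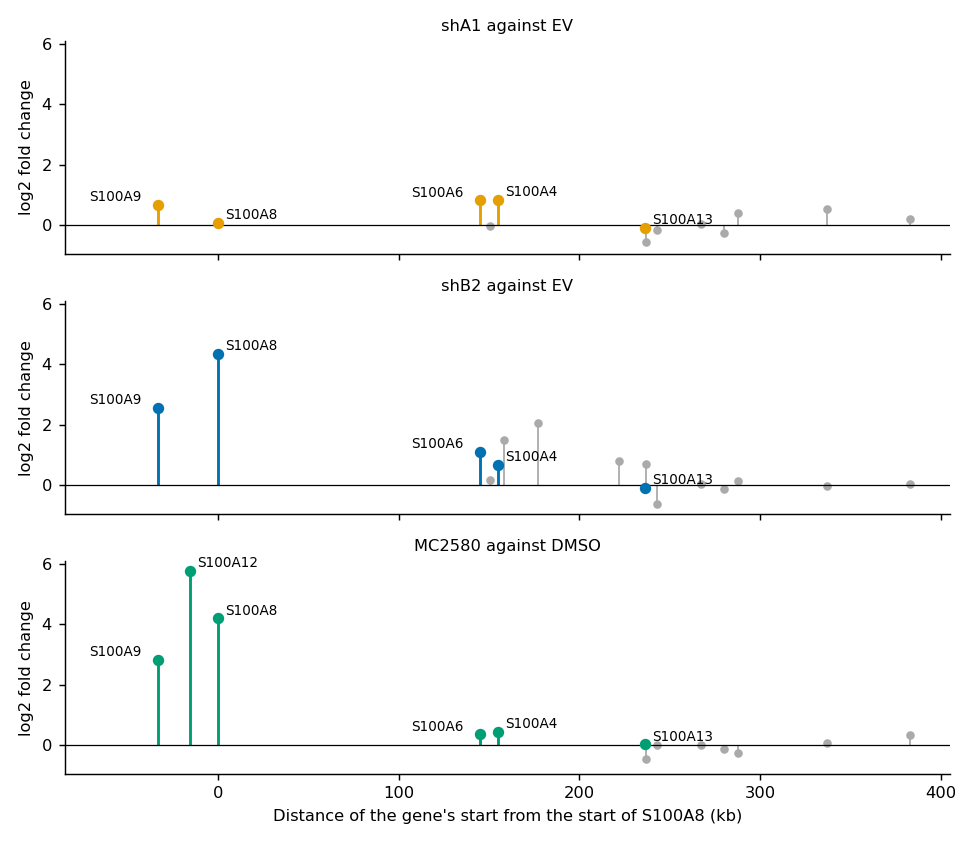
Log2 fold change of genes of the S100 cluster on chromosome 1 that had an adjusted p-value, at the distance of each gene's start from the start of S100A8 in kb; coloured points are the S100 genes described and grey points other protein-coding genes. S100A8 and S100A9, 33.2 kb apart, reach 4.35 and 2.56 under shB2 and 4.21 and 2.82 under MC2580, and S100A13 stays between -0.10 and 0.02.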

How the data were processed

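RNA was measured by mRNA-seq with the TruSeq RNA v2 kit in 10 libraries, 2 per group. The submitters' processing notes list bcl2fastq 2, FastQC 0.11.5, STAR 2.7, RSEM and DESeq2, with hg38 as the genome. Only the authors' comparison tables were at hand, and their own fold changes and tests are what the report describes: columns 3-1 and 4-2 were read as shA1 and shB2. As signal, the authors deposited base means, counts over size factors averaged over an experiment. The deposited log2 values are fold changes and standard errors. As score, the authors deposited Wald statistics. The deposited p-value columns hold Wald p-values, raw and adjusted after Benjamini and Hochberg, the adjusted ones left blank at low base means. Sample titles write MC280 where the treatment says MC2580. Without values per library, no depth, exact test or count model could be computed. The p-values rest on counting noise and on the dispersion per gene of the authors' fit, with 2 libraries per group. They cover no variation beyond that of replicate libraries.

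From these columns, with Python 3.11.15, numpy 2.4.6, pandas 2.3.3, scipy 1.17.1 and matplotlib 3.10.9, group means were solved from the base mean and fold changes, and the dispersion from the standard error. Dispersions solved from shA1 and from shB2 had a rank correlation of 0.9995 across 12463 genes (not independent replicates) and a median ratio of 0.996. The hairpin difference was tested over all 16673 genes by a Wald test whose standard error ignores the shared EV libraries. The calculation was run on simulated data whose counts and standard errors came from the same known dispersions. That run cannot show how the test behaves with dispersions estimated from few libraries. Thresholds followed the study's methods. Of 60558 gene identifiers, 60261 matched GENCODE 44. The release used by the authors is not given in the sources used here.

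Named were all 9 members, genes past both thresholds in lists of S100 genes, receptors, partners, factors, EF-hand genes, neighbours and markers, and for each called member the 2 genes of nearest pattern. Further list genes (S100A1, S100A2, S100A3, TLR4, AGER, CD36, CACYBP and SPI1) were named after their values were seen. The members and lists were chosen with earlier results of these data known. The receptor list holds 9 genes, 8 of which were found. The list of other lineages is reported in part. Alternatives were other p and fold thresholds, every gene with a p-value, a base mean of at least 50, protein-coding genes, centring on the median, a Wald test against a log2 fold change of 1, another length and a rebuilt standard error.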

Additional observations from a re-analysis of the deposited data

Results flagged for a closer look

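The response of S100A8 and S100A9 differed between the hairpins. The log2 fold change against EV was higher under shB2 than under shA1 by 4.28 for S100A8 and by 1.90 for S100A9 in the Wald test of the difference, with adjusted p of 1.07e-05 and 0.00152. With the standard error rebuilt without the shared EV term, the adjusted p were 2.13e-13 and 1.03e-07. The GSE1 transcript was at -0.77 under shA1 and -0.79 under shB2, and GSE1 protein was not analysed here. The cause of the difference was not tested.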

How the results depend on the processing

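Of 201 values of members under alternatives, 192 kept their side of the threshold, 5 passed it newly and 4 lost it. Every alternative except centring left the fold changes themselves as they were, and centring moved them too little to reverse any. Genes well under the fold threshold could not be called where that threshold was kept or raised. These counts are therefore no measure of how robust the calls are. With no fold threshold, the count under shA1 went from 0 to 3 higher (S100A4, S100A6 and S100A10) and from 0 to 1 lower (S100P), since those genes lie under a log2 fold change of 1. In the Wald test against a log2 fold change of 1, the count under MC2580 went from 2 to 0, at adjusted p of 0.0391 for S100A8 and 0.111 for S100A9, and S100A6 under shB2 was lost. S100A6 was also lost at a log2 fold change over 2. Counts for shB2 and for the difference between hairpins stayed within 1.5 times. The rebuilt standard error took S100P to an adjusted p of 0.000427, under the fold threshold. Centring moved the median of all genes by at most -0.02. With the longest transcript, 12 of 18 levels per kb moved by more than the spread. No paired analysis was possible because the tables used here hold no value per library. For the same reason leaving out a replicate, another scaling and another count tool were not run, and how far 1 library decides a value is unknown. The depth of each library is unknown, so what it limits cannot be given.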
